A study of Cicer arietinum with 32 samples.

Results

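Transcripts of GATA transcription factors, 4 of the 38818 measured, were followed through the chickpea expression atlas. Ca_TC10799, Ca_TC21570 and Ca_TC19221 were chosen because the study placed them as C2C2-GATA members in its regulatory network drawings, and Ca_TC00082 because it is annotated as GATA transcription factor 5 and lies within an interval linked to seed weight. The module table also gives the family of Ca_TC19221, and the annotation table that of Ca_TC00082, whereas the family of Ca_TC10799 and Ca_TC21570 rests on those drawings. The study made the drawings and the list of seed weight candidates from the same samples, so the patterns are descriptions and were not tested.

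GATA factors are zinc finger proteins that bind short DNA sites with the core letters GATA. In plants they form a family with several subgroups, and in Arabidopsis its members act in greening and nitrogen responses, in shoot meristem and flower organization, and in seed germination.

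The atlas covers 32 tissues/organs of the genotype ICC4958, without a treatment: germinating seedling, shoot, leaves, bracteole, root, root tip, root hair, nodule, shoot apical meristem (SAM), flower buds (FB1 to FB4), flowers (FL1 to FL5), flower parts taken at FL2, seeds named by the days after pollination (5DAP, 10DAP, 20DAP and 30DAP), and pod shell, seed coat, embryo and endosperm taken at the 10DAP stage. Each tissue/organ holds 1 value per transcript, the mean over replicates as the authors averaged them, so no spread between replicates can be given and neighbours in any order of tissues/organs could not be compared against it. Levels are in FPKM (fragments divided by transcript length and by the mapped fragments of the library), except that the 20DAP values are estimated counts and are given apart. In whole organs, fewer cells of a type and less RNA per cell cannot be told apart. The plants also differed in age and growth site. Root and shoot came from seedlings in a culture room, and root hairs from younger seedlings grown in the dark. Nodules came from mature plants in the field, as did the flower buds and flowers from field-grown plants. Differences between such samples cannot be told apart from those of age, light or site.

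The FPKM of a tissue/organ summed to between 597153 and 959753, with a median of 800320, whereas the 20DAP values summed to 2.95794e+07, 37.0 times that median, and 22.2% of them were whole numbers against at most 0.791% elsewhere. The tissue field of the shoot sample reads root, but 4 photosynthesis transcripts summed to 2049 FPKM in shoot and to 41.9 FPKM in root, so the title was followed. Ca_TC00866, a subunit of photosystem I, made up most of the sum in shoot with 1727 against 22.7 FPKM. Ca_TC00156 (283 against 15 FPKM) and Ca_TC00867 (38.5 against 3.42 FPKM) had the same order, while Ca_TC02876 hardly differed, at 1.03 against 0.75 FPKM. The marker root hair specific 14 reached 1025 FPKM in root hair and at most 4.63 FPKM elsewhere, and of 4 storage protein transcripts Ca_TC32070 and Ca_TC33544 stood at 3104 and 361.9 FPKM in 30DAP seed, while Ca_TC34744 and Ca_TC34749 were at 0.335 and 0.005 FPKM there. Root values carry 2 decimals and the others carry 3.

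Of the 4 GATA transcripts, 3 were broadly transcribed. Ca_TC10799 and Ca_TC21570 were at or above 0.5 FPKM, the expression threshold used here, in all 31 tissues/organs with FPKM, and Ca_TC19221 in 30 of them. Of the 34063 transcripts that reached 0.5 FPKM in at least 1 tissue/organ, 35.9% did so in all 31. Ca_TC00082 reached 0.5 FPKM in 3 tissues/organs, all of them seed samples. Of these, endosperm was just over the limit at 0.563 FPKM.

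**Figure D1:**
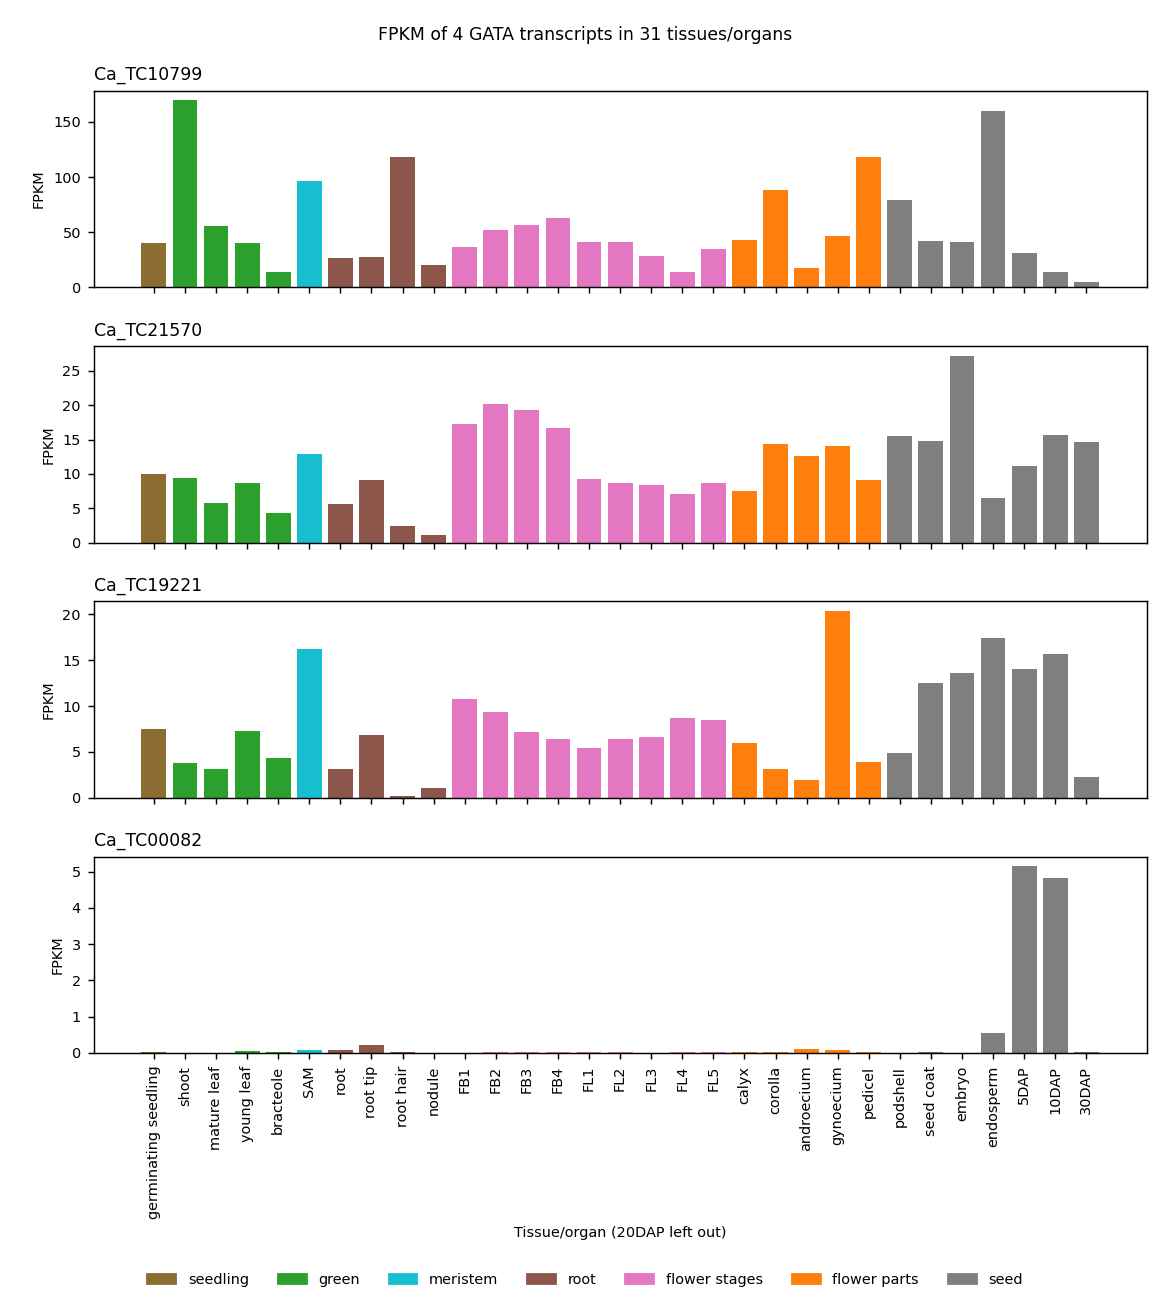
FPKM (linear axes that start at 0 and differ between panels) of each GATA transcript in the 31 tissues/organs with FPKM, 1 bar per averaged value, coloured by organ group. Ca_TC10799 has its tallest bars in shoot (169.6) and endosperm (159.9), Ca_TC21570 in embryo (27.2), Ca_TC19221 in gynoecium (20.4), and Ca_TC00082 in 5DAP (5.16) and 10DAP (4.81).

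Ca_TC10799 had the highest median of the 4, at 40.9 FPKM, with a lowest value of 4.71 FPKM in 30DAP seed and a highest of 169.6 FPKM in shoot. Endosperm stood next to shoot with 159.9 FPKM, followed by root hair with 118.1, pedicel with 117.9, SAM with 96.6, corolla with 88.2 and pod shell with 78.8 FPKM. The high samples thus came from several organ groups, and most groups held both high and low members. In the study, however, the transcriptomes of pedicel and pod shell were closer to those of green tissues. Among green tissues, mature leaf stood at 55.4, young leaf at 40.2 and bracteole at 13.5 FPKM. In the root group, root tip (27.5 FPKM), root (26.8 FPKM) and nodule (20.0 FPKM) all lay below root hair. The level was steadier over the flower buds, from 36.2 FPKM in FB1 to 62.6 in FB4, and went through 40.8, 40.9, 28.1, 14.1 and 35.2 FPKM from FL1 to FL5. Of the 31 values, 19 lay within 2-fold of the median.

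Ca_TC21570 varied less. Its median was 9.44 FPKM, its lowest value 1.08 FPKM in nodule and its highest 27.2 FPKM in embryo, and 25 of the 31 values lay within 2-fold of the median. The flower buds followed embryo in the order, with 20.2 FPKM in FB2, 19.3 in FB3, 17.3 in FB1 and 16.7 in FB4. All 4 bud stages (FB1 to FB4) lay above all 5 flower stages (FL1 to FL5), which ranged from 7.13 FPKM in FL4 to 9.27 in FL1. Among GATA transcripts outside the members, Ca_TC01567, Ca_TC12910 and Ca_TC15696 showed the same order. The share of all transcripts that do so was not counted. The low end was made up of nodule, root hair with 2.36 FPKM and bracteole with 4.34 FPKM. Among whole seeds the level was 11.2 FPKM in 5DAP, 15.6 in 10DAP and 14.7 in 30DAP, close to the level in seed coat (14.8 FPKM) and pod shell (15.6 FPKM).

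Ca_TC19221 was highest in gynoecium, the female organ of the flower, with 20.4 FPKM. Endosperm (17.4 FPKM), SAM (16.2 FPKM), 10DAP (15.7 FPKM), 5DAP (14.04 FPKM), embryo (13.6 FPKM) and seed coat (12.5 FPKM) came next, so young seeds, their parts and dividing shoot tissue filled the top of the order. The median was 6.63 FPKM. The lowest values were 0.183 FPKM in root hair, 1.09 in nodule, 1.95 in androecium and 2.25 in 30DAP seed. The highest value was 111 times the lowest, the widest span among the 3 broadly transcribed members, against 36.0 times for Ca_TC10799. Within the flower the 2 reproductive organs stood at opposite ends, since androecium was the lowest and gynoecium the highest of the 5 flower parts.

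Ca_TC00082 was transcribed at a low level in young seeds. Its FPKM was 5.16 in 5DAP and 4.81 in 10DAP, followed by 0.563 in endosperm, 0.223 in root tip and 0.123 in androecium. Every other value was at or below 0.09 FPKM, and the transcript was listed at 0 in shoot, mature leaf, nodule, FB1, FL3 and pod shell. The 10DAP value was 8.55 times the endosperm value that followed it, and the 5DAP and 10DAP seeds together held 85.8% of the FPKM summed over the 31 tissues/organs. Its Arabidopsis namesake GATA5 belongs to the same zinc finger family, and the name here comes from the annotation table of the study.

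The tissue specificity index, which is 0 for an equal level everywhere and 1 for a transcript confined to a single tissue/organ, was computed on log2(FPKM + 1). It was 0.281 for Ca_TC10799, 0.296 for Ca_TC21570, 0.367 for Ca_TC19221 and 0.940 for Ca_TC00082. Of the expressed transcripts, 20.0%, 22.2%, 31.8% and 87.2%, respectively, had a lower index. An index of at least 0.9, the limit for tissue-specific transcription in the study, was reached by 18% of the expressed transcripts, and an index of at least 0.9 with the highest value in 5DAP by 1.64%. Ca_TC00082 was in both sets, and the list of seed weight candidates from which it came had been chosen for such an index. On untransformed FPKM the index was 0.707 for Ca_TC10799, 0.607 for Ca_TC21570, 0.644 for Ca_TC19221 and 0.958 for Ca_TC00082, so the order of the 3 broadly transcribed members depended on the scale, whereas Ca_TC00082 was highest on both. Ca_TC00082 at its highest, 5.16 FPKM, lay below the medians of the other 3 members.

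Gynoecium, whole seeds and germinating seedling were then compared in order of development. Gynoecium and seedling are not seeds, so stage and tissue composition change together in the first and last comparison. A difference of at least 1 on the log2(FPKM + 1) scale was called, a scale that understates the change of low transcripts. From gynoecium to 5DAP seed, Ca_TC00082 went from 0.087 to 5.16 FPKM, 59.3 times higher and 2.50 on the log2 scale, a call in the direction shared by 9.03% of the expressed transcripts. The other 3 members were not called there, with differences of -0.59 for Ca_TC10799, -0.31 for Ca_TC21570 and -0.51 for Ca_TC19221. From 5DAP to 10DAP, Ca_TC10799 went from 30.8 to 14.2 FPKM, a difference of -1.06 that 7.78% of transcripts reached in that direction, while Ca_TC00082 (-0.08), Ca_TC21570 (0.45) and Ca_TC19221 (0.15) were not called.

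Between 10DAP and 30DAP seed, 3 of the 4 members were lower by the limit, as were 42.6% of the expressed transcripts. Ca_TC00082 went from 4.81 to 0.03 FPKM, 160 times lower and -2.50 on the log2 scale, and Ca_TC19221 from 15.7 to 2.25 FPKM, or -2.36. Ca_TC10799 went from 14.2 to 4.71 FPKM, or -1.42, whereas Ca_TC21570 held its level with a difference of -0.09. The median transcript was 0.70 lower in 30DAP than in 10DAP on this scale, and with quantile normalization, which gives every tissue/organ the same distribution, the differences became -2.15 for Ca_TC00082, -0.78 for Ca_TC19221, 0.10 for Ca_TC10799 and 1.34 for Ca_TC21570. The lower level of Ca_TC00082 in 30DAP was thus called on both scales, whereas the direction for Ca_TC10799 depended on the scale, as did that for Ca_TC21570.

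In germinating seedling, Ca_TC10799 stood at 39.8 FPKM against 4.71 in 30DAP seed, a difference of 2.84, and Ca_TC19221 at 7.45 against 2.25 FPKM, or 1.38. Such a call was shared by 40.9% of the expressed transcripts. With quantile normalization the difference was 1.53 for Ca_TC10799 and turned to -0.12 for Ca_TC19221. Ca_TC21570 was not called, at 10.0 against 14.7 FPKM, until quantile normalization took its difference from -0.51 to -1.82. Ca_TC00082 stayed at 0.02 FPKM in the seedling.

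The parts of the 10DAP seed separated the members further. Ca_TC10799 was higher in endosperm than in embryo, 159.9 against 41.3 FPKM, with a difference of embryo minus endosperm of -1.93 that 15.1% of transcripts reached in that direction. Ca_TC21570 showed the opposite order, 27.2 FPKM in embryo against 6.54 in endosperm, a difference of 1.91 that 11% reached. Both calls held when every tissue/organ was scaled to a common sum (-1.70 and 2.10) and with quantile normalization (-1.60 and 1.75). Ca_TC19221 was not called, at 13.6 FPKM in embryo and 17.4 in endosperm, and neither was Ca_TC00082, at 0.01 and 0.563 FPKM. No member was called between embryo and seed coat, where 11.6% of transcripts were higher and 15.3% lower in embryo.

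**Figure D2:**
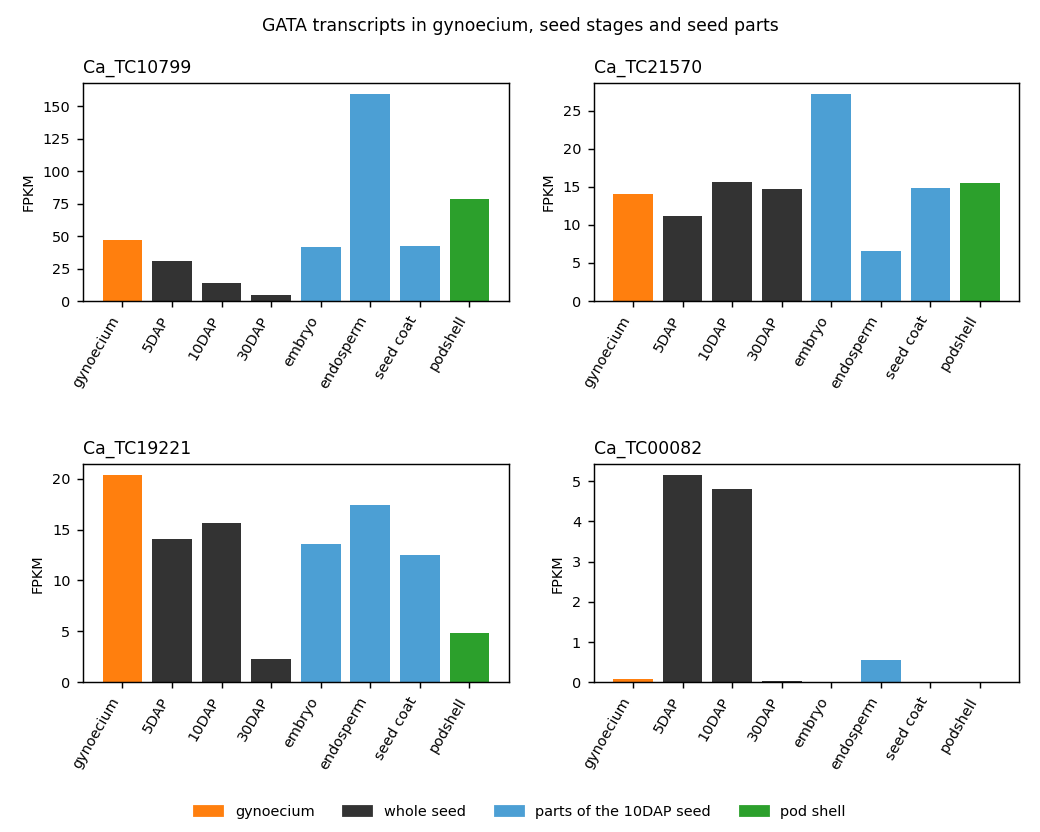
FPKM (linear axes that start at 0 and differ between panels) of each GATA transcript in gynoecium, whole seeds at 5, 10 and 30 DAP, the 3 parts of the 10DAP seed and pod shell, 1 bar per averaged value. The whole 10DAP seed lies below all 3 parts for Ca_TC10799 (14.2 against 41.3 to 159.9) and above all 3 for Ca_TC00082 (4.81 against at most 0.563).

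Since whole seeds and dissected parts were both sampled at 10DAP, the level in the whole can be set beside those in the parts. This comparison was chosen after seeing the data. For Ca_TC21570 and Ca_TC19221 the whole seed lay between the parts, at 15.6 FPKM within 6.54 to 27.2 and at 15.7 FPKM within 12.5 to 17.4. For the remaining 2 members it lay outside them, in opposite directions. Ca_TC10799 had 14.2 FPKM in the whole seed against 41.3 in embryo, 42.4 in seed coat and 159.9 in endosperm, so that the lowest part was 2.90 times and the highest part 11.2 times the whole. Of the 22923 transcripts at or above 0.5 FPKM in 10DAP, 8.38% lay below each part, and 0.942% did so by at least 1 on the log2 scale, as Ca_TC10799 did with -1.47 to its lowest part.

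Ca_TC00082 had 4.81 FPKM in the whole seed against 0.563 in endosperm, 0.017 in seed coat and 0.01 in embryo. The whole was 8.55 times its highest part, a difference of 1.89. A whole above each part was common, at 38.8% of the same transcripts, but a difference of at least 1 was found for 6.96% and one as large as that of Ca_TC00082 for 492 of the 22923. Among the 175 of these transcripts that, like Ca_TC00082, had an index of at least 0.9 and their highest value in 5DAP, 86 (49.1%) exceeded each part by at least 1, and the median difference from the highest part was 0.99 against -0.23 over all. The index covers the parts as well, so this selection itself favours low values in them. Neither the difference for Ca_TC10799 nor that for Ca_TC00082 lost its call when a pseudocount of 0.1, a common sum or quantile normalization was used. These alternatives, like the comparison itself, were chosen after seeing the data.

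**Figure D3:**
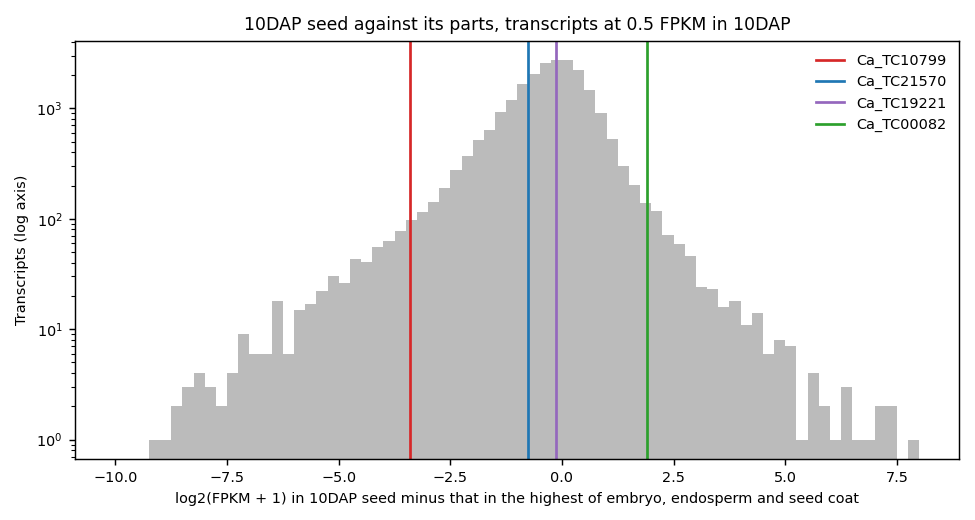
Number of transcripts (log axis) by the log2(FPKM + 1) of the 10DAP seed minus that of its highest part, for the 22923 transcripts at or above 0.5 FPKM in 10DAP, with vertical lines at the GATA transcripts. Ca_TC10799 lies in the lower tail at -3.40 and Ca_TC00082 in the upper tail at 1.89, while Ca_TC21570 (-0.76) and Ca_TC19221 (-0.14) lie near the centre.

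The pod shell, which derives from the ovary wall, was set against gynoecium. Ca_TC19221 was at 4.87 FPKM in pod shell and 20.4 in gynoecium, a difference of -1.87 that 14.1% of transcripts reached in that direction. Ca_TC10799 was at 78.8 against 47.0 FPKM, a difference of 0.73 that was not called.

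Outside the seed, the members diverged in root hair. Relative to root, Ca_TC10799 was higher in root hair, 118.1 against 26.8 FPKM, a difference of 2.10 that 10.3% of transcripts reached, and Ca_TC19221 was lower, 0.183 against 3.16 FPKM, a difference of -1.81 that 22.8% reached. Ca_TC21570 lay just short of a call, with 2.36 against 5.69 FPKM and -0.99. In nodule, the organ of nitrogen fixation, Ca_TC21570 was lower than in root, with 1.08 FPKM and a difference of -1.68 that 43.3% of transcripts reached. The median transcript was 0.72 lower in nodule than in root, and with quantile normalization the difference for Ca_TC21570 was -0.52 while that for Ca_TC10799 turned from -0.41 to 1.27. Root hair and nodule also differed from root in plant age and growth conditions, which cannot be told apart from the organ. No member was called between root tip and root, where 15.8% of transcripts were higher and 13.6% lower.

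Shoot held 169.6 FPKM of Ca_TC10799 against 26.8 in root, a difference of 2.61 that 15.7% of transcripts reached, and the other members were not called. In SAM, which holds the dividing cells of the shoot tip, Ca_TC10799 (96.6 against 40.2 FPKM, 1.25) and Ca_TC19221 (16.2 against 7.33 FPKM, 1.05) were higher than in young leaf, as were 14.3% of transcripts. Quantile normalization left a difference of 1.06 for Ca_TC10799 and of 0.65 for Ca_TC19221. Ca_TC19221 was lower in mature than in young leaf by the limit alone, 3.13 against 7.33 FPKM, a difference of -1.01 that 10.1% of transcripts reached and that became -0.98 with a common sum and -0.92 with quantile normalization.

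Within bud stages and within flower stages, the members differed little between first and last. None of the 4 was called between FB1 and FB4 (6.15% of transcripts higher and 6.12% lower) or between FL1 and FL5 (5.93% higher and 4.77% lower). Between flower parts, androecium was lower than gynoecium for Ca_TC19221, 1.95 against 20.4 FPKM with a difference of -2.86, and for Ca_TC10799, 17.4 against 47.0 FPKM with -1.38, a call shared by 32.9% of transcripts. Quantile normalization left -2.13 and -0.90, so that the call for Ca_TC10799 was lost. Corolla was higher than calyx for Ca_TC10799, 88.2 against 43.2 FPKM, with a difference of 1.01 that 6.1% of transcripts reached.

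**Figure D4:**
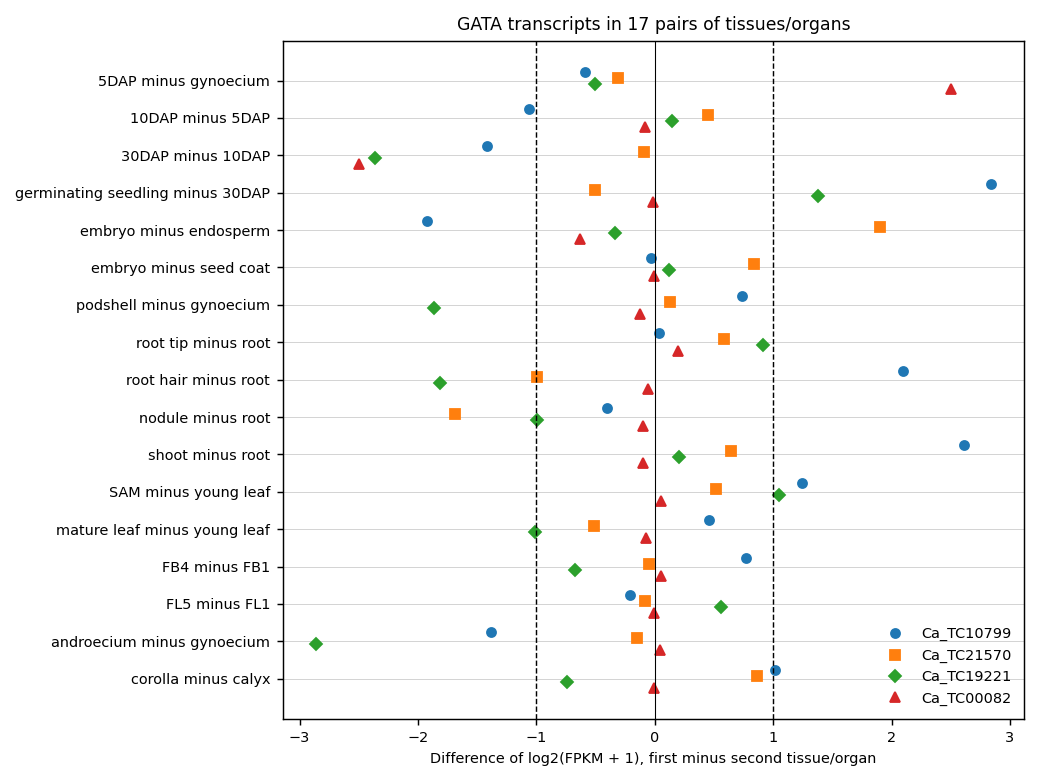
Difference of log2(FPKM + 1), first minus second tissue/organ, of the 4 GATA transcripts in 17 pairs, with dashed lines at the call limits of -1 and 1. Ca_TC10799 passes the limits in 9 pairs, Ca_TC19221 in 7, and Ca_TC21570 and Ca_TC00082 in 2 each.

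Over the 17 pairs, Ca_TC10799 was called in 9, 5 of them higher and 4 lower in the first tissue/organ, Ca_TC19221 in 7, 2 higher and 5 lower, and Ca_TC21570 and Ca_TC00082 in 2 each, 1 higher and 1 lower. The median share of expressed transcripts called in a pair was 26.1%. With quantile normalization Ca_TC19221 was called in 3 pairs, those of pod shell with gynoecium, root hair with root, and androecium with gynoecium.

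At 20DAP, Ca_TC10799 had an estimated count of 926, Ca_TC21570 one of 812, Ca_TC19221 one of 251.5 and Ca_TC00082 one of 0. Divided by the sum of the sample, these were 31.3, 27.5 and 8.50 CPM (counts per 1e+06 counts) for the first 3, and a count of 0 allows up to 3 counts, or 0.101 CPM, counting error only. As counts are not divided by transcript length they could not be set against FPKM, so each transcript was ranked within its own sample instead. Ca_TC10799 exceeded 88.0% of the transcripts in 20DAP, within its range of 76.3% to 98.02% over the other samples. Ca_TC21570 exceeded 86.4%, and only embryo (88.4%) and 30DAP (90.4%) gave it a higher rank. Ca_TC19221 exceeded 71.3%, and 7 of the 31 tissues/organs gave it a higher rank. Ranks of counts favour long transcripts, and transcript lengths were not used here.

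**Figure D5:**
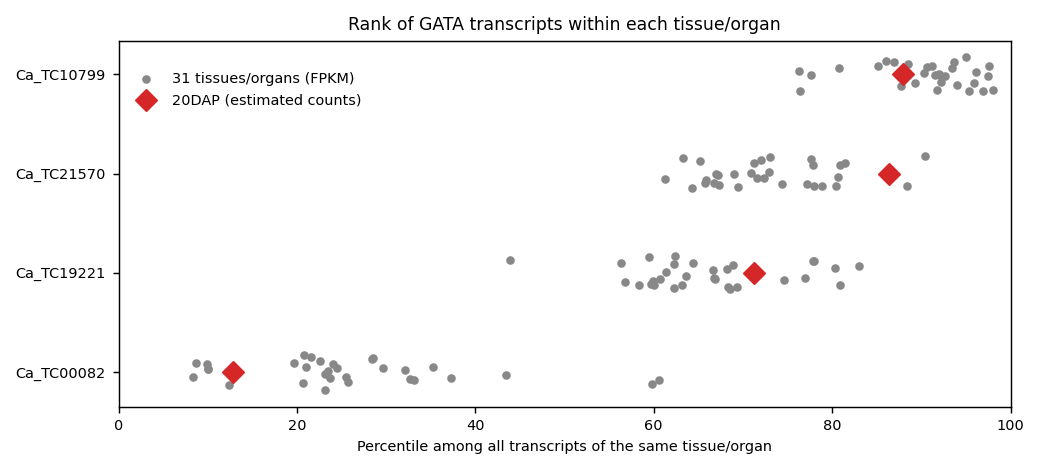
Percentile of each GATA transcript among all transcripts of the same tissue/organ, with grey points for the 31 with FPKM (spread vertically at random within a transcript) and a red diamond for 20DAP, ranked by estimated counts. For Ca_TC21570 the diamond (86.4) lies right of all but 2 grey points, and for Ca_TC10799 (88.0) 23 of the 31 lie to its right.

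The pattern of Ca_TC10799 was little shared by the other members, while Ca_TC21570 and Ca_TC19221 were the most alike. Over the 31 tissues/organs, Pearson's r on log2(FPKM + 1) was highest for Ca_TC21570 and Ca_TC19221 at 0.581, followed by 0.367 for Ca_TC19221 and Ca_TC00082, 0.118 for Ca_TC21570 and Ca_TC00082, 0.062 for Ca_TC10799 and Ca_TC19221, 0.034 for Ca_TC10799 and Ca_TC21570, and -0.18 for Ca_TC10799 and Ca_TC00082. These values share the tissues/organs and the libraries behind them, and those with Ca_TC00082 rest on 5DAP and 10DAP. The median r with all other expressed transcripts was 0.130 for Ca_TC10799, 0.196 for Ca_TC21570, 0.220 for Ca_TC19221 and 0.035 for Ca_TC00082. Ca_TC19221 and Ca_TC21570 were both low in nodule and root hair. The median over all transcripts was low there too, at 0.393 and 0.44 FPKM against 1.19 in root. By rank within nodule, Ca_TC19221 exceeded 61.4% of transcripts, near its median of 64.4% over the 31, and Ca_TC21570 61.2% against 72.0%. Within root hair they exceeded 43.9% and 63.3%.

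The transcripts nearest to each member in pattern, by Pearson's r over the same 31 tissues/organs among 34062 others, differed in how near they came. For Ca_TC10799 the nearest was Ca_TC09511 with 0.876, then Ca_TC08464 (0.825), Ca_TC06551 (0.7997), Ca_TC25189 (0.772) and Ca_TC17659 (0.770), and none reached 0.9. All 5 had their lowest value in 30DAP, as Ca_TC10799 did. The 30DAP seed was among the tissues/organs matched on and had the lowest median over all transcripts, at 0.29 FPKM. The share of all transcripts lowest there was not counted. For Ca_TC21570 the 5 nearest were Ca_TC21872 (0.872), Ca_TC04351 (0.871), Ca_TC23441 (0.864), Ca_TC17579 (0.863) and Ca_TC18648 (0.856), again with none at 0.9. Ca_TC19221 had 66 transcripts at or above 0.9, led by Ca_TC28337 (0.944), Ca_TC17386 (0.944), Ca_TC06084 (0.938), Ca_TC03607 (0.933) and Ca_TC18411 (0.929), all 5 lowest in root hair. Root hair too was matched on and had a low median over all transcripts, at 0.44 FPKM. The study's family table names Ca_TC17386 a Coactivatorp15 factor.

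Ca_TC19221 was put by the study in module M1, a set of 796 transcripts with similar patterns that it related to embryo, and 51 of these carry a transcription factor family. The r of Ca_TC19221 with the other 50 ranged from 0.296 to 0.944 with a median of 0.803, against a median of 0.220 over all expressed transcripts. A high value is what membership in the module selects for. Embryo was the highest tissue/organ for 6 of the 51 factors, endosperm for 18, gynoecium for 16 and SAM for 5. Embryo was among the 5 highest for 37 of the 51, and it was the sixth highest for Ca_TC19221. The shares of all transcripts that are highest in these tissues/organs were not counted, so these counts have no background.

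Ca_TC00082 had 162 transcripts at or above 0.9, and these correlations rest on the 2 young seed samples. The nearest were Ca_TC28383 (0.996), Ca_TC05602 (0.995), Ca_TC29621 (0.993), Ca_TC21379 (0.993) and Ca_TC12677 (0.993). They were more abundant in part, with 51.2 FPKM in 5DAP and 48.4 in 10DAP for Ca_TC28383 and 3.50 and 4.19 FPKM for Ca_TC12677. All 5 had a count of 0 in 20DAP and their highest seed part in endosperm, and their whole 10DAP seed was from 10.3 times (Ca_TC12677) to 49.5 times (Ca_TC29621) that part, as it was 8.55 times for Ca_TC00082. The 10DAP seed and its parts were among the tissues/organs matched on. A whole above each part is therefore largely what the choice by r selects for. The shares of all transcripts with a count of 0 in 20DAP, or with endosperm as their highest seed part, were not counted.

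The locus of Ca_TC00082 lies on chromosome 1 of the kabuli chickpea genome v1.0 from base 539876 to base 542946, a span of 3071 bp, and is annotated as an mRNA. Whether particular bases are exon, intron or UTR was not analysed here. It falls in a seed weight interval from base 363821 to base 1162304. The neighbour on its left, Ca_TC00081, an HSP40/DnaJ peptide-binding protein that acts as a co-chaperone by its family, ends 837 bp away and was highest in androecium with 12.7 FPKM, against 0.39 in 5DAP. The neighbour on its right, Ca_TC00083, a protein kinase, begins 6573 bp away and was highest in root with 19.01 FPKM, against 9.89 in 5DAP. No other transcript overlapped the locus, and neither neighbour had the young seed pattern (r of -0.00081 and -0.087).

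Of the 131 transcripts placed in that interval, 130 were expressed, 8 had their highest FPKM in 5DAP and 4 in 10DAP, and 14 had an index of at least 0.9. Such an index was reached by 18% of all expressed transcripts. The share of all transcripts highest in 5DAP or in 10DAP was not counted, so those 2 counts have no background. The median r of the others with Ca_TC00082 was 0.085. The seed weight list names 4 further transcripts there. Of these Ca_TC00095, a gibberellin 20 oxidase, an enzyme of gibberellin synthesis, came nearest (r of 0.686), with 9.54 FPKM in endosperm, 5.74 in 10DAP and 1.57 in 5DAP. Ca_TC00098, of the GNS1/SUR4 family that elongates fatty acids, and Ca_TC00106, with an XS zinc finger, were both highest in seed coat, at 13.7 and 13.6 FPKM. Ca_TC36029, a transmembrane protein, was highest in root hair at 0.667 FPKM and had an estimated count of 31.95 in 20DAP.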

How the data were processed

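RNA from 32 tissues/organs of chickpea was sequenced as paired-end reads. The authors filtered reads with NGS QC Toolkit, mapped them with Bowtie to their transcriptome assembly, quantified them with RSEM and averaged replicates, and they deposited FPKM for 31 tissues/organs. The values deposited for 20DAP are headed FPKM but read as estimated counts from their sum and whole numbers, so they entered no level comparison. RSEM shares reads between similar transcripts, so members with close copies could take reads from each other.

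Differences, correlations and the tissue specificity index were computed on log2(FPKM + 1) with Python 3.11, numpy 2.4.6 and pandas 2.3.3, and scripts were tested on simulated data. A call was a difference of at least 1, and backgrounds were transcripts at 0.5 FPKM or more in 1 tissue/organ. The named transcripts were the 4 members, 4 other GATA transcripts, the 5 nearest to each member, the locus neighbours of Ca_TC00082, the seed weight list in its interval, and marker transcripts. Members and lists were chosen with earlier results of these data known. With 1 value per tissue/organ no test was made, and depth per value is unknown for FPKM. Alternatives were other pseudocounts, expression limits and scalings, 20DAP included, and, chosen after seeing the data, root left out.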

Additional observations from a re-analysis of the deposited data

Results flagged for a closer look

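The 20DAP values stood outside the main measurement because they are estimated counts. Signal above the limit that a count of 0 allows (3 counts) was present for 3 of the 4 members, with an estimated count of 926 for Ca_TC10799, 812.205 for Ca_TC21570 and 251.5 for Ca_TC19221. Read as if they were FPKM, these would be 5.46, 29.8 and 12.3 times the highest FPKM of the same transcript in any other tissue/organ.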

How the results depend on the processing

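Each value is a single average per tissue/organ, so only processing choices could be varied. No paired analysis was possible because each tissue/organ has 1 averaged value and no test was made. Ca_TC00082 was expressed in 5 tissues/organs at a limit of 0.1 FPKM against 3 at 0.5 FPKM. It was expressed in 2 at 1 FPKM or with a common sum, which counts below as within 1.5 times. Its tissue specificity index fell to 0.884, under the limit of 0.9, with a pseudocount of 0.1. On untransformed FPKM the indices of Ca_TC10799, Ca_TC21570 and Ca_TC19221 rose to 0.707, 0.607 and 0.644 from 0.281, 0.296 and 0.367, and with 20DAP included as deposited they were 0.452, 0.644 and 0.643. The calls of Ca_TC19221 went from 7 to 3 with quantile normalization, and those of Ca_TC21570 from 2 to 1 without root, by construction, since one of its pairs held root. With 20DAP included as deposited, r became 0.504 for Ca_TC10799 and Ca_TC21570, 0.448 for Ca_TC10799 and Ca_TC19221, and 0.809 for Ca_TC21570 and Ca_TC19221, a sample in other units standing above the rest for each. Other counts of expressing tissues/organs (15), indices (23), counts of calls (15), correlations (33) and differences of the whole seed from its parts (6) kept their side of the limit, or stayed within 1.5 times for counts and within the range that 31 points allow for correlations. The cause of the change in calls with quantile normalization was not tested. The median share of transcripts called in a pair was 26.1% with the expression filter and 22.9% without.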

Other observations

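Besides the members, 4 further transcripts were found by name as GATA factors in the tables read here. They are not the whole family: the study counts more C2C2-GATA genes in chickpea, and the rest were not analysed here. Ca_TC12910 and Ca_TC15696, both placed in module M10, were highest in androecium, at 87.1 and 233.4 FPKM, followed by FB3 at 18.3 and 34.5 FPKM and FB2 at 15.8 and 32.1 FPKM. Ca_TC12910 reached 0.5 FPKM in 7 tissues/organs and was listed at 0 in 15, with an index of 0.923. Ca_TC15696 reached 0.5 FPKM in 24 and had a further high value of 22.3 FPKM in root tip, with an index of 0.774. Their Pearson's r over the 31 tissues/organs was 0.831. Among the members, Ca_TC19221 and Ca_TC10799 had their lowest flower part value in androecium.

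Ca_TC01567, annotated as GATA transcription factor 10, was at or above 0.5 FPKM in all 31 tissues/organs with an index of 0.235 on log2(FPKM + 1), lower than that of any member. It was highest in root tip (57.6 FPKM), embryo (51.2 FPKM) and gynoecium (38.2 FPKM) and lowest in nodule (3.63 FPKM), with r of 0.692 to Ca_TC19221 and 0.610 to Ca_TC21570. Ca_TC34607, annotated as GATA transcription factor 27, was at 2.86 FPKM in nodule, at 0.003 FPKM in FL2 and listed at 0 in the other samples with FPKM. The study did not place Ca_TC34607 on the genome.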
